A study of Mus musculus with 6 samples.

Results

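The TRIM family genes were taken as every protein-coding row of the expression table whose symbol was Trim followed by a number, which gave 68 genes of the 54532 in the table. RNA-seq was performed on mouse aortic smooth muscle cells (MASMCs), primary cultures made by collagenase treatment of abdominal aortas from mice that were wild type and 10 weeks old. The cells were transduced with an adenovirus carrying a pyruvate dehydrogenase kinase 4 overexpression plasmid (Ad-PDK4, 3 libraries) or a control plasmid (Ad-Con, 3 libraries), and the methods state that both groups then received angiotensin II at 1 µM for 48 h. No library without adenovirus or without angiotensin II was analysed here, and the labels name no separate cultures or mice. The study calls the 3 libraries of a group biological replicates without saying from which cultures or mice, and the p-values given here measure the spread between libraries. The comparison asked which TRIM genes differed between cells given the kinase vector and cells given the control vector.

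TRIM proteins are named for a tripartite motif of a RING finger, B-box zinc fingers and a coiled coil, and most act as E3 ubiquitin ligases, the enzymes that choose which protein receives ubiquitin. The C-terminal domain differs between members and sets their partners: a PRY-SPRY domain is common in members that recognise viral proteins or act on RNA and DNA sensing pathways, while NHL repeats, a bromodomain or a COS box mark members with roles in neurons, chromatin or on microtubules. Many members of the innate group are known interferon-stimulated genes.

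The libraries held 17588942 to 21861872 reads assigned to genes. Values were given as FPKM, fragments per kilobase of gene scaled to a library size. That size, 17501102 to 22088287, was close to the assigned reads but not equal to them. It was below them in the second library of each group. All nonzero values converted back to whole reads. A single read in a gene of 1 kb was worth 0.0453 to 0.0571 FPKM, and intervals or floors from reads cover counting error only, because reads are not independent molecules. Pdk4, the gene named by the vector, stood at 9.50, 10.4 and 10.1 FPKM in the Ad-Con-labelled libraries and at 7.67, 7.40 and 7.38 FPKM in the Ad-PDK4-labelled ones, a fall by 0.42 on the log2 scale (limma, SE 0.06, adjusted p = 1.1e-03). The mouse Pdk4 count thus went against the overexpression label, and every direction below compares Ad-PDK4-labelled with Ad-Con-labelled libraries. Whether the vector's transcript could be counted in this gene was not tested.

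Of the markers of the labelled cell type, the sum of 12 smooth muscle genes was 173 FPKM in each Ad-Con-labelled library and 135 to 145 FPKM in the Ad-PDK4-labelled ones, but Myh11 (at most 0.0723 FPKM), Myocd (at most 0.0428 FPKM) and Tagln (at most 0.555 FPKM) were nearly absent from every library. Also low in every library were Mylk (at most 0.849 FPKM), Lmod1 (at most 0.796 FPKM), Actg2 (at most 0.568 FPKM), Cnn1 (at most 0.539 FPKM) and Des (at most 0.235 FPKM). Within that sum Acta2 was lower (76.9 to 78.7 FPKM against 33.5 to 38.0 FPKM) and Cald1 higher (55.6 to 56.8 FPKM against 69.7 to 75.1 FPKM). The sum of 6 fibroblast genes was 1430 to 1555 FPKM against 738 to 805 FPKM, mostly from Col1a1 (1007 to 1086 FPKM against 404 to 492 FPKM), while Dcn was higher (83.3 to 99.2 FPKM against 143 to 181 FPKM). Macrophage genes summed to 15.0 to 18.1 FPKM against 6.10 to 7.62 FPKM, with Ptprc, C1qa, C1qb, C1qc and Tyrobp listed at 0 in all libraries among the 12. Cd68 carried that sum (12.9 to 16.3 FPKM against 3.10 to 4.85 FPKM), whereas Lyz2 (1.30 to 1.68 FPKM against 1.74 to 2.24 FPKM) and Csf1r (0.111 to 0.395 FPKM against 0.565 to 0.725 FPKM) were higher in every Ad-PDK4-labelled library. Endothelial genes summed to 1.24 to 1.54 FPKM against 1.28 to 1.56 FPKM, and lymphocyte genes to at most 0.265 FPKM, with 5 of 6 at 0 in all. The part of these differences in the TRIM results was not tested, and in bulk RNA fewer cells of a type and less RNA per cell cannot be told apart.

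Of the 68 TRIM genes, 37 had a mean of at least 0.5 FPKM and were tested. The remaining 31 fell under that limit, and 8 of them had no read in any library. The tested genes nearest to the limit were Trim62 at 1.11 and Trim6 at 1.01 FPKM, and the nearest below it were Trim34b at 0.437 and Trim30c at 0.403 FPKM. With limma and an adjusted p below 0.05, 20 of the 37 rose (54.1%) where 21.8% of all 13423 genes tested did so, and 6 fell (16.2%) where 20.8% of all genes did. A rise of at least 2-fold was seen in 8 members (21.6%) beside 3.95% of all genes. No member fell by at least 2-fold, a size of fall that limma called in 2.68% of all genes. Limma-voom on the recovered reads also called 0 members with a fall of that size. With no limit on size, 7 members were lower in limma at an unadjusted p below 0.05. Limma-voom called 7 lower at an adjusted p below 0.05. The median log2 fold change over the tested members was 0.29, and it was -0.003 over all genes tested.

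**Figure D1:**
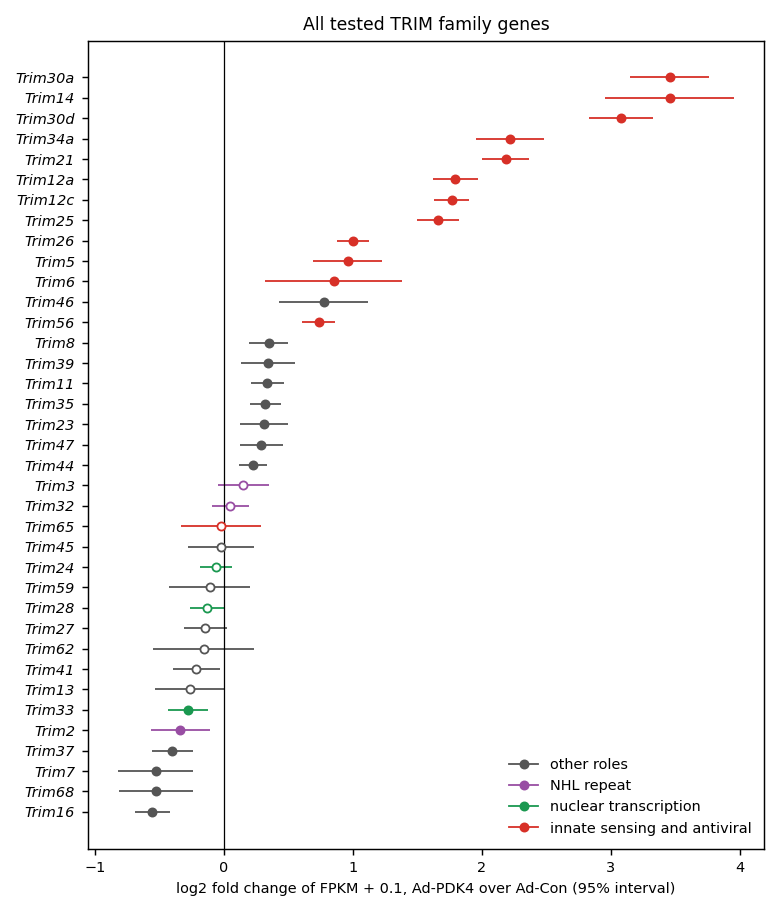
Log2 fold change of FPKM + 0.1 in Ad-PDK4-labelled libraries over Ad-Con-labelled ones for the 37 tested TRIM genes, with 95% intervals from limma; filled points passed an adjusted p of 0.05 and open points did not. The top 11 genes and 12 of the 13 highest belong to the innate sensing and antiviral group, and the 6 lowest genes, from Trim33 to Trim16, lie between -0.28 and -0.55.

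In the plot of fold changes over all tested members, the upper end is held by genes listed under a single role. All 8 members that rose by at least 2-fold belonged to the 17 TRIM genes listed for roles in virus sensing or restriction. That list was drawn up with results of these data known, so that the counts by role are a description. Each member was placed in a single role. Genes listed elsewhere may act in virus sensing too, and the counts depend on this placing. In the innate group 13 genes were tested, 12 rose, 0 fell and Trim65 did not pass, and the median log2 fold change was 1.77. None of the 13 was lower at an unadjusted p below 0.05 or in limma-voom. Of the 24 tested members outside it, 8 rose, 6 fell and 10 did not pass, with a median of -0.08. The rises there ran from 0.23 to 0.77. Of all genes tested, 21.8% rose and 20.8% fell. All 26 members that passed the test had 3 values in one group that did not overlap those of the other. Passing the test itself favours such separation, so it is no separate support. The Ad-PDK4-labelled libraries lay entirely above in 20 of the 37 (54.1%), as they did in 27.8% of all 13423 genes tested. They lay entirely below in 9 of the 37 (24.3%), beside 26.5% of all genes tested.

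The summed level of the 68 genes was 438 ± 1.89 FPKM (SD, n = 3) in the Ad-Con-labelled libraries and 630 ± 6.37 FPKM (SD, n = 3) in the Ad-PDK4-labelled ones. As a share of all protein-coding FPKM this was 0.152 ± 0.00122% and 0.224 ± 0.00152%. The innate group held 14.1 ± 0.426% of the family's FPKM in the Ad-Con-labelled libraries and 37.3 ± 2.11% in the Ad-PDK4-labelled ones. Trim28 was the most abundant member by its mean over all libraries. It went from 16.6 ± 0.186% to 10.6 ± 0.648% of the family's FPKM while its own log2 fold change was -0.13.

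**Figure D2:**
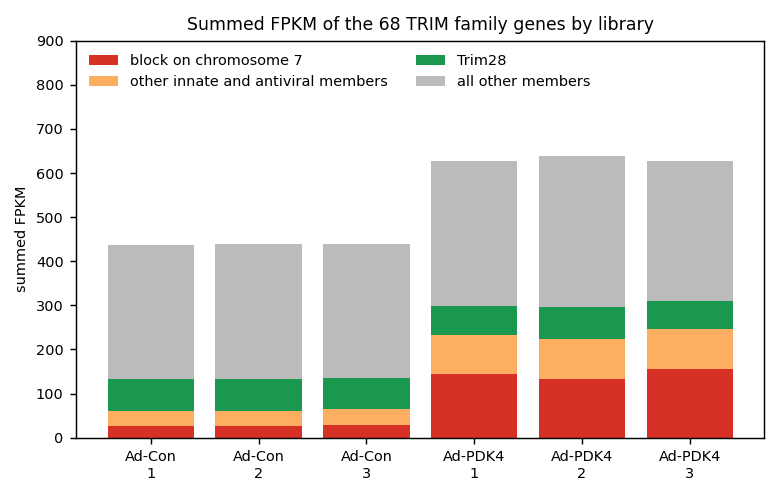
Summed FPKM of the 68 TRIM genes in each library, split into the 10 genes of the block on chromosome 7, the other innate and antiviral members, Trim28 and all other members. The block (red) goes from 25.7 to 27.9 FPKM in the Ad-Con-labelled libraries to 133 to 157 FPKM in the Ad-PDK4-labelled ones, and the whole bar from at most 439 FPKM to at least 626 FPKM.

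Trim30a, Trim30d, Trim34a, Trim12a, Trim12c, Trim5 and Trim6, which are 7 of the 12 innate members that rose, lie beside one another in a single block of chromosome 7, from 104218793 to 104507849 (289 kb, coordinates of the deposited table, which match GRCm38). The block holds 10 TRIM genes in the order Trim6, Trim34a, Trim5, Trim12a, Trim34b, Trim12c, Trim30b, Trim30c, Trim30a and Trim30d, and the 7 that could be tested all rose. The annotation places 8 other genes there, all pseudogenes, antisense or small nuclear RNAs; 4 had no reads and the largest count in any library was 70, for Gm16464. The block summed to 26.9 ± 1.12 FPKM against 145 ± 11.7 FPKM (SD, n = 3 each).

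The stretches printed here are the places in the promoter windows of the genes with the largest rises that hold the core of the interferon-stimulated response element (ISRE), a short element known from the promoters of many interferon-stimulated genes. They are given because the members with the largest rises that had a window share these letters, and because neighbouring genes share much more than the core. Other members that rose, Trim6 and Trim56 among them, had none in their windows. Each is in the gene's direction of transcription, 5′ to 3′, from RefSeq on GRCm38.p6, with the ISRE core in capitals (TTCNNTTTC, or GAAANNGAA where it lies on the opposite strand).
Trim30a, chr7:104465210-104465253: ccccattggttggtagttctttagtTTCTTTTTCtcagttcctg
Trim30d, chr7:104507871-104507914: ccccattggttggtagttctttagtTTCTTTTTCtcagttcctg
Trim12a, chr7:104315466-104315509: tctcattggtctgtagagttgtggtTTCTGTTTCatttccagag
Trim5, chr7:104288136-104288179: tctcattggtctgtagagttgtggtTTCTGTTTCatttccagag
Trim12c, chr7:104353359-104353402: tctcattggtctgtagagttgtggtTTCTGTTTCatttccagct
Trim34a, chr7:104244443-104244486: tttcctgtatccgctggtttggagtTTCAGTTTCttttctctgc
Trim21, chr7:102565453-102565494: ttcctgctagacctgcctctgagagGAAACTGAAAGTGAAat
Trim25, chr11:88999369-88999412: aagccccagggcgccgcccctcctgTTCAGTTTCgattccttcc
Trim26, chr17:36836962-36837011: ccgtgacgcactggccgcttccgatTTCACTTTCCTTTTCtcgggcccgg

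Trim34a, Trim25 and Trim26 are on the plus strand and the other 6 on the minus strand. Trim30a and Trim30d were identical over all 44 bases, as were Trim5 and Trim12a, and Trim12c had 42 of 44 bases in common with each of the latter. Trim30a and Trim12a had 25 of 44 in common, and Trim25 and Trim34a, which lie on different chromosomes, 20 of 44. The windows of near-copies are therefore not separate examples. In Trim21 and Trim26 the capitals cover 2 overlapping or adjoining places that match the core.

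A promoter window, 250 bases before to 50 after the annotated start, was found for 53 of the 68 members, and both strands were searched. All 7 matched members that rose by at least 2-fold held the ISRE core, Trim14 being the member of that group with no window. It was found in 2 of the 9 matched members that rose by less (Trim26 and Trim5), 2 of the 4 that fell (Trim2 and Trim7), 0 of the 9 that did not pass and 1 of the 24 below the limit on FPKM (Trim34b). Over the family this was 12 of 53 (22.6%), beside 9.76% of 27025 genes with a window in the same table and 8.56% of 32851 windows. A second core, the gamma-activated site (GAS, TTCNNNGAA), was in 6 of the 53 members and in 0 of the 7 with the largest rises, beside 9.55% of genes. These are matches of letters within one window, given as a description with no test.

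Trim30a, a regulator that lowers Toll-like receptor signalling to NF-κB by degrading TAB2 and TAB3, stood at 4.09, 5.44 and 5.22 FPKM in the Ad-Con-labelled libraries and at 53.3, 48.7 and 62.7 FPKM in the Ad-PDK4-labelled ones. The lowest value of the second group was far above the highest of the first. The difference was 3.46 on the log2 scale (limma, SE 0.13, adjusted p = 2.0e-06), an 11.0-fold rise that carried the gene from the rank of a minor member to a mean in the Ad-PDK4-labelled libraries that only Trim35 and Trim28 exceeded. Its paralogue Trim30d went from 2.14, 2.20 and 2.70 FPKM to 21.1, 18.5 and 22.1 FPKM, with no overlap and a log2 fold change of 3.08 (limma, SE 0.11, adjusted p = 6.0e-07). Of all 100-base stretches of their longest transcripts, 4.79% in Trim30a and 5.53% in Trim30d occur in the other gene and the rest of each transcript is distinct at that length.

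Trim30c, which lies between Trim30b and Trim30a, was under the limit on mean FPKM but had the most one-sided reads of any member: 0, 0 and 0 reads in the Ad-Con-labelled libraries and 25, 24 and 31 reads in the Ad-PDK4-labelled ones (0.806 ± 0.0104 FPKM, SD, n = 3). Against 3 reads in each Ad-Con-labelled library, the number that a count of 0 was taken to allow, its Ad-PDK4 mean was 8.58-fold higher. That figure leaves out the counting error of the Ad-PDK4 reads. No 100-base stretch of its transcript was shared with another gene. Trim30b had 3, 1 and 2 reads against 10, 5 and 13 reads, and did not pass when the limit on FPKM was dropped (limma, adjusted p = 0.152). Counts of this size leave its fold poorly fixed.

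Trim12a, Trim12c and Trim5 are the mouse relatives of TRIM5, the retrovirus restriction factor that binds incoming capsids. Trim12c stood at 10.5, 11.2 and 11.9 FPKM against 38.1, 37.3 and 39.0 FPKM, a log2 fold change of 1.77 (limma, SE 0.06, adjusted p = 5.2e-07). Trim12a was lower in level, at 3.64, 3.66 and 3.18 FPKM against 12.7, 12.2 and 12.2 FPKM, but its log2 fold change of 1.796 (limma, SE 0.07, adjusted p = 1.5e-06) was within an SE of that of Trim12c. Trim5 was the lowest of the set, at 1.24, 1.10 and 1.17 FPKM against 2.47, 2.23 and 2.39 FPKM, and rose by 0.96 on the log2 scale (limma, SE 0.12, adjusted p = 4.1e-04). The 95% interval for Trim5, 0.69 to 1.23, lay below those for Trim12a (1.62 to 1.97) and Trim12c (1.63 to 1.90), although the difference between genes was not itself tested. Of the 100-base stretches of Trim5, 12.7% also occur in Trim12c, Trim12a or a further gene, and some of its reads could be theirs.

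Trim34a, a PRY-SPRY member close to Trim6 and Trim5, stood at 3.13, 2.57 and 2.77 FPKM against 13.3, 11.8 and 15.5 FPKM. The groups did not overlap and the log2 fold change was 2.22 (limma, SE 0.11, adjusted p = 4.7e-06). A near-copy, Trim34b, contains the same 100-base stretches as Trim34a over 32.6% of its own transcript, and 42.0% of those of Trim34a occur in another gene, so the values of this pair are uncertain. Trim34b had 5, 13 and 6 reads against 24, 19 and 25 reads (limma with no limit on FPKM, adjusted p = 0.0421). Trim6, which makes unanchored ubiquitin chains that activate the kinase IKKε, stood at 0.813, 0.465 and 0.823 FPKM against 1.27, 1.30 and 1.37 FPKM. It rose by 0.85 on the log2 scale (limma, SE 0.23, adjusted p = 0.0188), but not when the first or the third Ad-PDK4-labelled library was left out (adjusted p = 0.0517 and 0.0581).

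**Figure D3:**
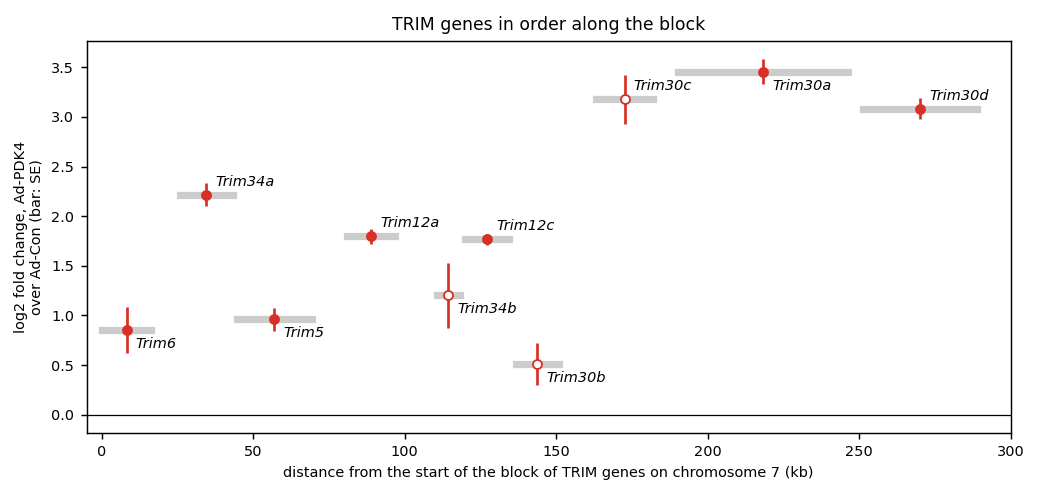
Log2 fold change of FPKM + 0.1, Ad-PDK4-labelled libraries over Ad-Con-labelled ones, against distance from the start of the TRIM block on chromosome 7 in kb; grey bars span each gene, vertical bars are 1 SE, and open points are the 3 genes under the limit on FPKM, fitted without it. All 10 points lie above 0, from 0.51 for Trim30b to 3.46 for Trim30a, and the open point of Trim30c depends on the pseudocount because its Ad-Con libraries had no reads.

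In the plot along the block, the rises were not uniform. Trim30a and Trim30d at one end rose by over 3 on the log2 scale, while Trim6 at the other end and Trim5 rose by less than 1. Trim12c had the highest FPKM of the block in the Ad-Con-labelled libraries, and 4 of the 7 tested genes had a larger fold change.

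Outside the block, Trim14 had a rise as large as that of Trim30a. Trim14 lacks a RING finger and acts as an adaptor at MAVS, the mitochondrial hub of RNA sensing. It had 23, 10 and 15 reads in the Ad-Con-labelled libraries (0.260, 0.131 and 0.191 FPKM) and 240, 241 and 289 reads in the Ad-PDK4-labelled ones (3.04, 3.17 and 3.02 FPKM). The groups were far apart, with a log2 fold change of 3.46 (limma, SE 0.21, adjusted p = 1.3e-05). Trim14 reached the limit on mean FPKM only through the Ad-PDK4-labelled libraries (0.194 against 3.08 FPKM on average), so it could enter the test only as a gene that differed, and without it 7 members rose by at least 2-fold and 11 of 12 tested innate members rose. The value rests on the pseudocount, since the gene was near the pseudocount of 0.1 FPKM in one group: it was 1.77 with a pseudocount of 1 FPKM, and the ratio of the means was 15.8. Trim14 shares 1356 exon bases (31.3% of its own) with Nans on the opposite strand. Of the 100-base stretches of its longest transcript, 53.1% occur in another gene on either strand, Nans among them. The strand setting of the counting is not given in the sources used here. Nans, named here for this overlap after its values were seen, moved the other way, from 9.76 ± 0.269 to 7.98 ± 0.273 FPKM (log2 fold change -0.29, limma, adjusted p = 5.4e-03).

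Trim21, the cytosolic Fc receptor that sends antibody-coated virus to the proteasome, lies on chromosome 7 apart from the block (102557921 to 102565486). Its values were 3.45, 3.28 and 3.68 FPKM against 15.4, 15.5 and 17.7 FPKM, without overlap. It rose by 2.19 on the log2 scale (limma, SE 0.08, adjusted p = 6.7e-07). Its neighbour Trim68 (102677582 to 102687327) is described below with the genes that fell.

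Trim25, the ligase best known for ubiquitinating the RNA sensor RIG-I, had the highest mean over all libraries of the innate members outside the block, although Trim26 was above it in the Ad-Con-labelled libraries. It stood at 10.0, 9.97 and 11.6 FPKM against 33.6, 34.0 and 32.6 FPKM and rose by 1.66 on the log2 scale (limma, SE 0.07, adjusted p = 1.5e-06). Trim26, which acts on IRF3 and on TAB1 in virus-infected cells, stood at 12.6, 12.0 and 12.4 FPKM against 23.8, 25.8 and 24.5 FPKM. Its rise of 0.999 on the log2 scale (limma, SE 0.05, adjusted p = 6.2e-06) lay at the 2-fold limit, and ranged from 0.93 to 1.04 over the alternatives. Trim56, which ubiquitinates the DNA sensing proteins cGAS and STING, stood at 6.97, 6.65 and 6.79 FPKM against 11.6, 11.3 and 11.3 FPKM, a rise of 0.74 (limma, SE 0.05, adjusted p = 3.4e-05). These 3 genes shared tight groups, with no overlap in any.

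Trim65, a ligase for the RNA sensor MDA5, was the one tested innate member that did not pass. It stood at 1.54, 1.53 and 1.45 FPKM against 1.35, 1.43 and 1.69 FPKM, and the groups overlapped. The log2 fold change was -0.02 with a 95% interval of -0.33 to 0.29 (limma, adjusted p = 0.913), so that a rise of the size seen for Trim56 lay outside the interval. Of its exon bases, 3.82% are shared with Trim47 on the same strand. Trim38, the remaining innate member, had 1 read in each of 2 libraries and none in the other 4.

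**Figure D4:**
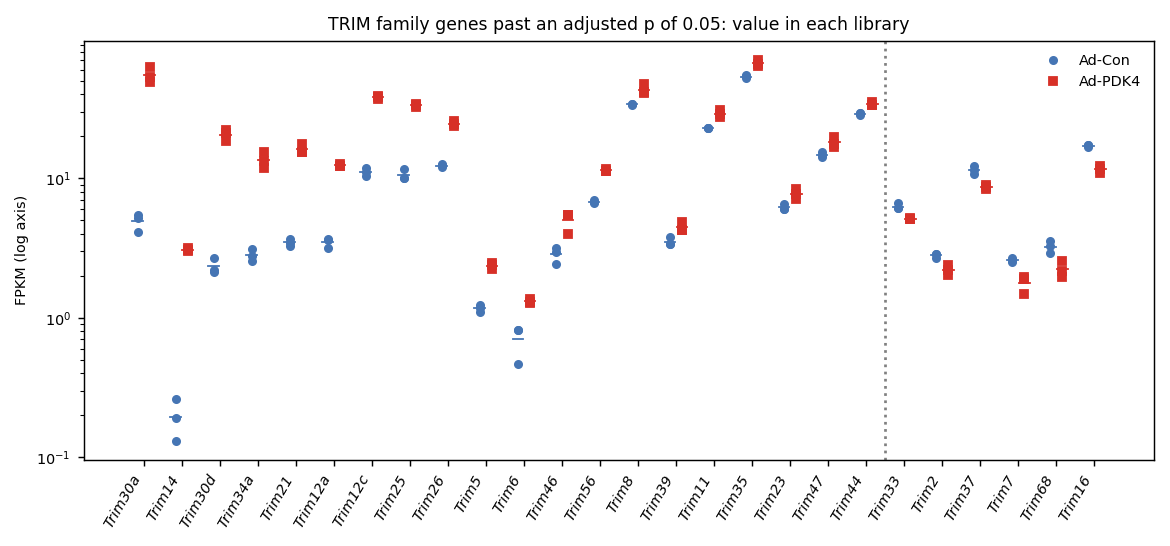
FPKM on a log axis of the 26 TRIM genes past an adjusted p of 0.05 in each library, blue circles for Ad-Con labels and red squares for Ad-PDK4 labels, with a line at each mean; the 20 genes left of the dotted line rose and the 6 to its right fell. No gene's groups overlap, and the gaps are wide from Trim30a to Trim26 and narrow from Trim8 to Trim44.

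The changes of members listed under other roles were mostly smaller. Trim46, a COS-box protein that bundles microtubules at the axon initial segment, had the largest rise outside the innate group among the 37 tested genes. Its values were 2.97, 3.18 and 2.43 FPKM against 5.46, 5.48 and 4.00 FPKM, which did not overlap although the third library was the lowest in each group. The log2 fold change was 0.77 (limma, SE 0.15, adjusted p = 4.4e-03). The other COS-box members Trim9, Trim36, Trim42 and Trim67, which are mostly neuronal or testicular genes, had between 0 and 5 reads in each library.

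Among the nuclear cofactors, Trim28 (KAP1), the corepressor that KRAB zinc finger proteins recruit to silence transposable elements, was the most abundant TRIM gene in the Ad-Con-labelled libraries. Its values of 73.1, 72.9 and 72.1 FPKM against 66.0, 71.7 and 62.4 FPKM did not overlap, but the log2 fold change of -0.13 (95% interval -0.26 to 0.008) did not pass (limma, adjusted p = 0.117). Without the second Ad-PDK4-labelled library it did (log2 fold change -0.18, adjusted p = 0.0194). Trim33 (TIF1γ), a ligase and cofactor of SMAD signalling, stood at 6.08, 6.08 and 6.63 FPKM against 5.21, 5.11 and 5.08 FPKM. It fell by 0.28 on the log2 scale (limma, SE 0.07, adjusted p = 0.0116). Trim24 (TIF1α), a bromodomain coregulator of nuclear receptors, stood at 10.1 and 9.66 FPKM on average (log2 fold change -0.06, limma, adjusted p = 0.424). Trim66 stayed at 21 reads or fewer.

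Of the NHL-repeat members, Trim2, a ligase for neurofilament light chain, fell from 2.67, 2.87 and 2.85 FPKM to 2.19, 2.38 and 2.03 FPKM. The groups did not overlap, yet the fall of 0.34 on the log2 scale (limma, SE 0.10, adjusted p = 0.0265) was among the weakest calls: it was lost without a limit on FPKM (adjusted p = 0.0506) and when any of 5 of the 6 libraries was left out, the exception being the second Ad-PDK4-labelled library. Trim3 was at 14.6 and 16.1 FPKM (adjusted p = 0.197), and Trim32, whose human counterpart is mutated in a limb-girdle muscular dystrophy, at 10.3 and 10.7 FPKM (adjusted p = 0.550). Neither passed limma's test. Trim71, the stem cell member, had 0 to 5 reads.

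Trim16, a RING-less member that takes part in the autophagy of damaged lysosomes, had the largest fall among the 6 members past the test. It stood at 17.2, 16.8 and 17.3 FPKM against 11.8, 12.2 and 10.9 FPKM, well apart, and fell by 0.55 on the log2 scale (limma, SE 0.06, adjusted p = 2.3e-04). Trim44, a second RING-less member that carries a ubiquitin protease-type zinc finger, rose by 0.23 (limma, SE 0.05, adjusted p = 5.6e-03), from 29.6, 28.5 and 29.2 FPKM to 33.7, 33.6 and 35.0 FPKM. The 2 genes thus moved in opposite directions, each with groups that did not overlap. The third gene listed as RING-less, Trim29, had at most 3 reads. Trim14, which also lacks a RING finger, was placed in the innate group and rose.

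Members with a C-terminal domain that few others share were also mixed. Trim37, a ligase that restrains centriole formation and is mutated in mulibrey nanism, fell by 0.40 on the log2 scale (limma, SE 0.07, adjusted p = 2.4e-03), from 12.2, 10.7 and 11.4 FPKM to 8.31, 8.67 and 8.96 FPKM. Trim23, which carries an ARF-type GTPase domain, rose by 0.31 (limma, SE 0.08, adjusted p = 0.0162), from 6.03, 6.03 and 6.50 FPKM to 8.39, 7.05 and 7.66 FPKM. That call was lost without the first or the second Ad-Con-labelled library or the first Ad-PDK4-labelled library (adjusted p = 0.0541, 0.0503 and 0.0601). Trim13, a membrane-anchored ligase of the endoplasmic reticulum, stood at 6.70, 7.32 and 6.59 FPKM against 6.73, 4.85 and 5.68 FPKM, overlapping, a difference of -0.26 on the log2 scale (limma, adjusted p = 0.107). Without the first Ad-PDK4-labelled library it passed, at -0.38 (adjusted p = 0.0257). Trim45 and Trim59 did not pass (adjusted p = 0.888 and 0.543).

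In the remaining set of 26 genes, 10 were tested, 5 rose, 2 fell and 3 did not pass. Among all genes tested, 21.8% rose and 20.8% fell. Trim35 was the second most abundant TRIM gene by its mean over all libraries. It stood at 52.4, 54.7 and 53.7 FPKM against 66.0, 70.8 and 64.3 FPKM and rose by 0.32 on the log2 scale (limma, SE 0.05, adjusted p = 1.8e-03). Trim8, a ligase in TNF and interleukin-1 signalling, stood at 34.0, 33.4 and 34.2 FPKM against 40.8, 47.3 and 41.5 FPKM and rose by 0.35 (limma, adjusted p = 3.5e-03). Both groups of values were apart for each. Trim11 rose by 0.34 (adjusted p = 2.2e-03), Trim39 by 0.34 (adjusted p = 0.0176) and Trim47 by 0.29 (adjusted p = 0.0138) in the same limma fit. The call of Trim39 was lost without the first or the third Ad-Con-labelled library or the third Ad-PDK4-labelled library (adjusted p = 0.0605, 0.0595 and 0.0508), and that of Trim47 without the first Ad-Con-labelled library (adjusted p = 0.0516).

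The 2 members of this set that fell were low in level. Trim68, known as a coactivator of the androgen receptor, stood at 2.91, 3.52 and 3.28 FPKM against 2.15, 2.55 and 1.97 FPKM and fell by 0.53 on the log2 scale (limma, SE 0.12, adjusted p = 0.0106). Trim7, named also for its binding to glycogenin, stood at 2.66, 2.51 and 2.61 FPKM against 1.90, 1.96 and 1.49 FPKM and fell by 0.53 (limma, SE 0.13, adjusted p = 0.0113). Trim7 was one of the genes with an ISRE core in a promoter window, so that the letters occurred in genes that rose and in genes that fell. Trim41 stood at 24.8 FPKM against 21.5 FPKM on average, without overlap, and just missed the limit (log2 fold change -0.21, limma, adjusted p = 0.0583). It passed without the second Ad-PDK4-labelled library (-0.27, adjusted p = 0.0263), as did Trim27 (-0.20, adjusted p = 0.0491), which stood at 10.8 and 9.78 FPKM overall (-0.14, adjusted p = 0.152). Trim62 stood at 1.17 and 1.04 FPKM (adjusted p = 0.496).

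The TRIM genes of striated muscle were nearly silent in these cultures. Trim54 and Trim55, the MuRF ligases of the sarcomere, had no read in any library, which was taken to allow 3 reads in each. Trim63 (MuRF1), the ligase of muscle atrophy, had 32, 34 and 17 reads against 18, 17 and 7 reads, and did not pass with no limit on FPKM (log2 fold change -0.80, limma, adjusted p = 0.227). Trim72 (MG53), a membrane repair protein of muscle, had 0 to 3 reads.

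Of the 31 members under the limit on FPKM, 23 had some reads, and 13 of these never exceeded 10 reads in a library. Only 8 had a read in every library: Trim34b, Trim63, Trim15, Trim43c, Trim69, Trim17, Trim66 and Trim30b. With no limit on FPKM, 3 of the 31 passed in limma, all higher: Trim30c, Trim34b and Trim15, the last with 6, 6 and 7 reads against 16, 11 and 22 reads (adjusted p = 0.0475). Trim69 had 5, 4 and 2 reads against 9, 12 and 9 reads (adjusted p = 0.0906). Trim43a showed how far single libraries can stray at this depth, with 0, 0 and 13 reads in the Ad-Con-labelled libraries. The genes with no read anywhere were Trim9, Trim31, Trim42, Trim52, Trim54, Trim55, Trim58 and Trim60.

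TRIM proteins that carry other symbols were held as a separate list of 6 genes. Of these, 3 were tested and all passed, 2 higher and 1 lower, beside 21.8% and 20.8% of all genes tested that rose and fell. Pml, the organiser of nuclear bodies, went from 21.4, 21.6 and 21.3 FPKM to 39.0, 44.6 and 39.3 FPKM, a rise of 0.93 on the log2 scale (limma, adjusted p = 2.0e-05). Mid1, a microtubule-associated ligase with a COS box, went from 3.51, 2.81 and 3.25 FPKM to 6.13, 7.44 and 6.36 FPKM, a rise of 1.04 (limma, adjusted p = 2.2e-04). Its close paralogue Mid2 went the other way, from 5.67, 5.25 and 5.28 FPKM to 3.87, 4.04 and 4.58 FPKM, a fall by 0.37 (limma, adjusted p = 9.8e-03). No groups overlapped in these 3 genes. Over all genes tested, the Ad-PDK4-labelled libraries lay entirely above in 27.8% and entirely below in 26.5%.

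A list of 20 genes that relay RNA and DNA sensing, the pathways on which several TRIM ligases act, was all tested, and 12 rose, 0 fell and 8 did not pass, with a median log2 fold change of 0.41. Over all genes tested, 21.8% rose and 20.8% fell. The number lower was also 0 at an unadjusted p below 0.05 and in limma-voom. The largest rises were those of Irf7, the transcription factor that amplifies interferon production (5.69 ± 0.794 to 184 ± 11.6 FPKM, log2 fold change 5.00), Dhx58, which encodes the sensor LGP2 (1.91 to 30.0 FPKM, 3.92), and Ifih1, which encodes MDA5 (2.84 to 19.9 FPKM, 2.77). The direct partners of the TRIM genes above were looked up after their values were seen, and not all of them rose in RNA level. Ddx58 (RIG-I, the substrate of Trim25) rose by 1.82 (limma, adjusted p = 4.4e-06) and Tmem173 (STING, a substrate of Trim56) by 0.60 (adjusted p = 8.5e-04). Mb21d1 (cGAS, the other Trim56 substrate) and Irf3, on which Trim26 acts, did not pass, with log2 fold changes of 0.34 (limma, adjusted p = 0.157) and 0.02 (limma, adjusted p = 0.877). Mavs, where Trim14 acts, stood at 18.3 and 19.5 FPKM (log2 fold change 0.09, limma, adjusted p = 0.246). Tab2 and Tab3, the targets of Trim30a, had log2 fold changes of 0.09 (limma, adjusted p = 0.189) and -0.04 (limma, adjusted p = 0.766), so that neither passed. All of these are RNA levels. The ligases act on the proteins of their targets, which were not measured here, so an effect on them was not tested.

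E3 ligases take ubiquitin from E2 enzymes, which E1 enzymes charge. Of 20 E1 and E2 genes, 19 were tested, 6 rose, 1 fell and 12 did not pass, with a median of 0.07, beside 21.8% and 20.8% of all genes tested that rose and fell. The largest rises were those of Ube2l6 (20.01 ± 0.686 to 109 ± 6.15 FPKM, log2 fold change 2.44, limma, adjusted p = 9.6e-08) and Uba7 (3.82 to 17.6 FPKM, 2.17, limma, adjusted p = 1.7e-07), which are the E2 and E1 of ISG15, a ubiquitin-like protein, followed at a distance by Ube2g2 (0.38, adjusted p = 7.5e-04). Ube2h fell by 0.29 (adjusted p = 1.4e-03), and the number that fell was 5 without the third Ad-PDK4-labelled library. Uba1, the main E1 of ubiquitin, named after its values were seen, stood at 124 and 126 FPKM (log2 fold change 0.02, limma, adjusted p = 0.758). The enzymes that rose the most therefore belonged to the ISG15 system, and those of the general ubiquitin supply named here differed by less than 0.4 on the log2 scale.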

How the data were processed

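The authors deposited 1 table of FPKM values per gene and library. Per the labels' processing notes, reads were handled with CASAVA 1.8 and fastp, aligned with HISAT2 2.0.5, counted with featureCounts 1.5.0-p3 and compared with DESeq2 1.20.0. The notes name the build GRCm39, but 98.3% of the 54409 gene IDs found in GENCODE M21 had the coordinates of that GRCm38 release, including 66 of the 68 members, and coordinates are given as GRCm38. The labels and the methods name different library kits. All per-sample columns were mapped to a library by its title.

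Because FPKM are not counts, limma 3.58.1 in R 4.3.3 was fitted to log2(FPKM + 0.1) over 13423 genes with a mean of at least 0.5 FPKM, with trend and robust moderation and Benjamini-Hochberg adjustment over all of them, 3 Ad-Con against 3 Ad-PDK4 libraries and no covariate. Fold changes are on that scale, which understates those of low genes. Reads per gene were recovered from FPKM and gene length; all nonzero values were whole within 0.01. A count of 0 was taken to allow 3 reads. The script was tested on simulated data. Python 3.11.15 with pandas 2.3.3 made the tables. Every tested member could be named, members below 0.5 FPKM were named where they had reads, and of other lists the 3 largest rises and falls; genes named outside this rule are marked. The members and lists were chosen with earlier results of these data known. Alternatives covered the pseudocount, the limit on FPKM, TPM, quantile normalization, moderation, a replicate block, limma-voom on reads and leaving out each library.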

Additional observations from a re-analysis of the deposited data

How the results depend on the processing

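Of 544 gene values over 15 alternatives (6 of them leaving out a library), 513 kept their direction and their side of the threshold, 15 lost a call, 8 gained one and 8 changed sign, and 24 of the 37 genes kept both under every alternative. The sign changes were all in genes that passed in neither setting: Trim45 (0.0169) and Trim65 (0.0171) with TPM, Trim32 (-0.0104) with quantile normalization, and, over the fits that left out a library, Trim45 (-0.069 to 0.0589), Trim65 (-0.112 to 0.0434) and Trim59 (-0.218 to 0.0186). The number of members that rose ranged from 15 (minimum of 5 FPKM, fewer genes tested) to 23 (no limit), the number that fell from 4 to 9, and the number that rose by at least 2-fold from 7 to 10. Without a library, those that rose numbered 17 to 20 and those that fell 5 to 9. The median over members was 0.13 with no limit on FPKM (more genes tested), 0.33 with TPM, 0.24 with quantile normalization and 0.24 to 0.32 without a library; the cause was not tested. The median over all genes was 0.04 with TPM and -0.04 with quantile normalization. The E1 and E2 genes that fell numbered 1 in the main comparison, 3 with a minimum of 5 FPKM, 4 with quantile normalization, 2 with limma-voom and 1 to 5 without a library; the cause was not tested. With the replicate number as a block, 20 members rose and 7 fell, Trim41 being added (adjusted p = 0.0345). Same-numbered libraries did not deviate together (correlations -0.05, -0.03 and -0.001). No library correlated best with its own number, so the numbers were not taken as pairs. Depth limits the 23 members under 0.5 FPKM that had reads, and with 3 libraries a group small differences such as those of Trim41 or Trim13 turn on single libraries.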
